A study of Mus musculus with 6 samples.

Results

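Neurotrophic factors are secreted proteins that keep neurons alive, and 9 genes of their signalling families were followed in mouse retinal ganglion cells, which send the output of the retina to the brain. The genes were chosen by name: the ligand Bdnf; the neurotrophin receptors Ntrk2 and Ntrk3; the receptors of the GDNF family Ret, Gfra1 and Gfra2; and the receptors for ciliary neurotrophic factor and related cytokines, Cntfr, Lifr and Il6st. This choice was made with earlier results of these data known. All 9 of 9 were found among the 22413 genes of the count table. Bulk RNA sequencing compared adult mice of genotype Tgfbr1flx/flx;Vglut2Cre/+ with mice of genotype Tgfbr1flx/flx;Vglut2+/+, with 3 libraries in each group. Both groups carry 2 floxed copies of Tgfbr1, whose product is a kinase receptor of the transforming growth factor beta pathway. In the first group, called Cre-positive here, Cre recombinase is driven by the gene for vesicular glutamate transporter 2 (Slc17a6), so recombination is directed to cells that use that gene, among which are ganglion cells. The second group, called Cre-negative, carries the floxed allele without Cre. The labels do not say whether a library came from 1 animal, several pooled animals or a repeat of the same material, and the p-values therefore reflect the spread among these libraries alone, which may be technical.

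Neurotrophins act through Trk receptor tyrosine kinases: BDNF binds TrkB, the product of Ntrk2, and neurotrophin 3 binds TrkC, the product of Ntrk3. Ligands of the GDNF family first bind a membrane-anchored co-receptor, GFRα1 for GDNF itself and GFRα2 for neurturin, and the complex then activates the kinase RET. Ciliary neurotrophic factor binds the co-receptor encoded by Cntfr, which recruits the signalling chains LIFR and gp130, encoded by Lifr and Il6st, and activates STAT3. BDNF and ciliary neurotrophic factor are known for prolonging the survival of ganglion cells after optic nerve injury in rodents.

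Library totals lay between 8098891 and 21126291 counts in the Cre-positive group and between 7486359 and 16372260 counts in the Cre-negative group. At 10 counts or more, 5790 to 7209 genes were detected in Cre-positive libraries and 4258 to 4863 genes in Cre-negative libraries, so every Cre-positive library detected more of the table. With every library thinned at random to 7486359 counts, the numbers were 5745 to 6866 and 4067 to 4650 genes. The targeted gene Tgfbr1 had 46, 0 and 793 counts in Cre-positive libraries 1 to 3 and 1, 0 and 1538 counts in Cre-negative libraries 1 to 3. These counts span the whole gene, do not separate the floxed part, and are therefore no check of the labels. Slc17a6, the driver gene and a defining transcript of ganglion cells, had 5904, 13948 and 2101 counts in Cre-positive libraries and 13572, 3498 and 0 counts in Cre-negative libraries. Cre-negative library 3 stood apart in its cell type markers. Its 17 ganglion cell markers summed to 971.8 CPM (counts scaled so that every library has the same total). The sum was 3999.6 to 7107.3 CPM in the Cre-positive group and 4867.0 and 6380.1 CPM in the other Cre-negative libraries. The markers did not all move together, and 9 of the 17 reached 10 counts there, against 10 to 13 in the other libraries. Cre-negative library 3 was lowest of the 6 in Nefl, at 5.19 CPM, and Stmn2, at 36.3 CPM. It was not lowest in Rbpms, at 256.7 CPM, or Pou4f1, at 85.1 CPM. Its 13 endothelial markers summed to 6713.7 CPM, against 382.0 to 945.8 CPM in the Cre-positive group and 673.4 and 35.9 CPM in the other Cre-negative libraries. Its Müller glia and astrocyte markers summed to 6599.4 CPM, of which Vim, a filament gene shared by many cell types, held most with 96054 counts. Of the 13 Müller glia and astrocyte markers, 5 reached 10 counts there: Vim, Clu, Apoe, Rlbp1 and Glul. Rlbp1 had 2493 counts there and at most 1 in every other library, whereas Glul was at its lowest level of the 6 libraries there, at 39.0 CPM. Slc1a3, Aqp4, S100b, Aldh1l1, Dkk3 and Gpr37 were at 0 in that library. In bulk samples such as these, fewer cells of a type and less RNA per cell cannot be told apart. The part of these marker levels in the results below was not tested.

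**Figure D1:**
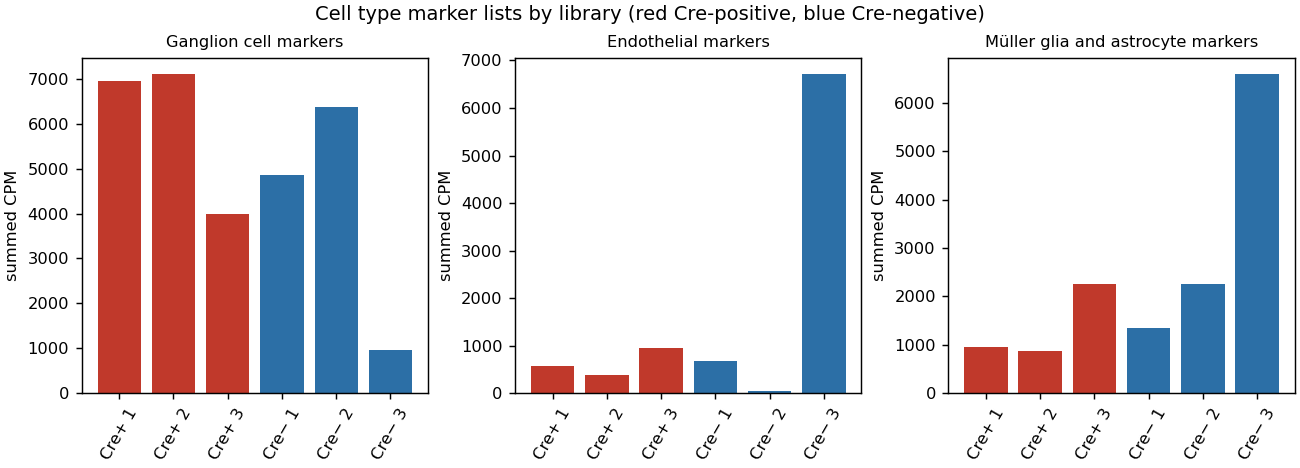
Summed CPM (vertical axis, linear, from 0) of the ganglion cell, endothelial and Müller glia and astrocyte marker lists in each of the 6 libraries, Cre-positive in red and Cre-negative in blue, 1 bar per library. Cre-negative library 3 is lowest for ganglion cell markers at 971.8 CPM and highest for endothelial markers at 6713.7 CPM.

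Of the 9 genes, 2 were detected in every Cre-positive library, Bdnf and Ret, and none was detected in every library of both groups. Cre-positive libraries 1 to 3 detected 5, 6 and 2 of the 9, and Cre-negative libraries 1 to 3 detected 4, 2 and 4. The means were 4.33 ± 2.08 in Cre-positive libraries and 3.33 ± 1.15 in Cre-negative libraries (SD, n = 3 each), a difference smaller than the spread. Most of each gene's counts came from few libraries: the highest library held between 52.9% of all counts, for Lifr, and 83.2%, for Ntrk2, among the 8 genes with more than 1 count.

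**Figure D2:**
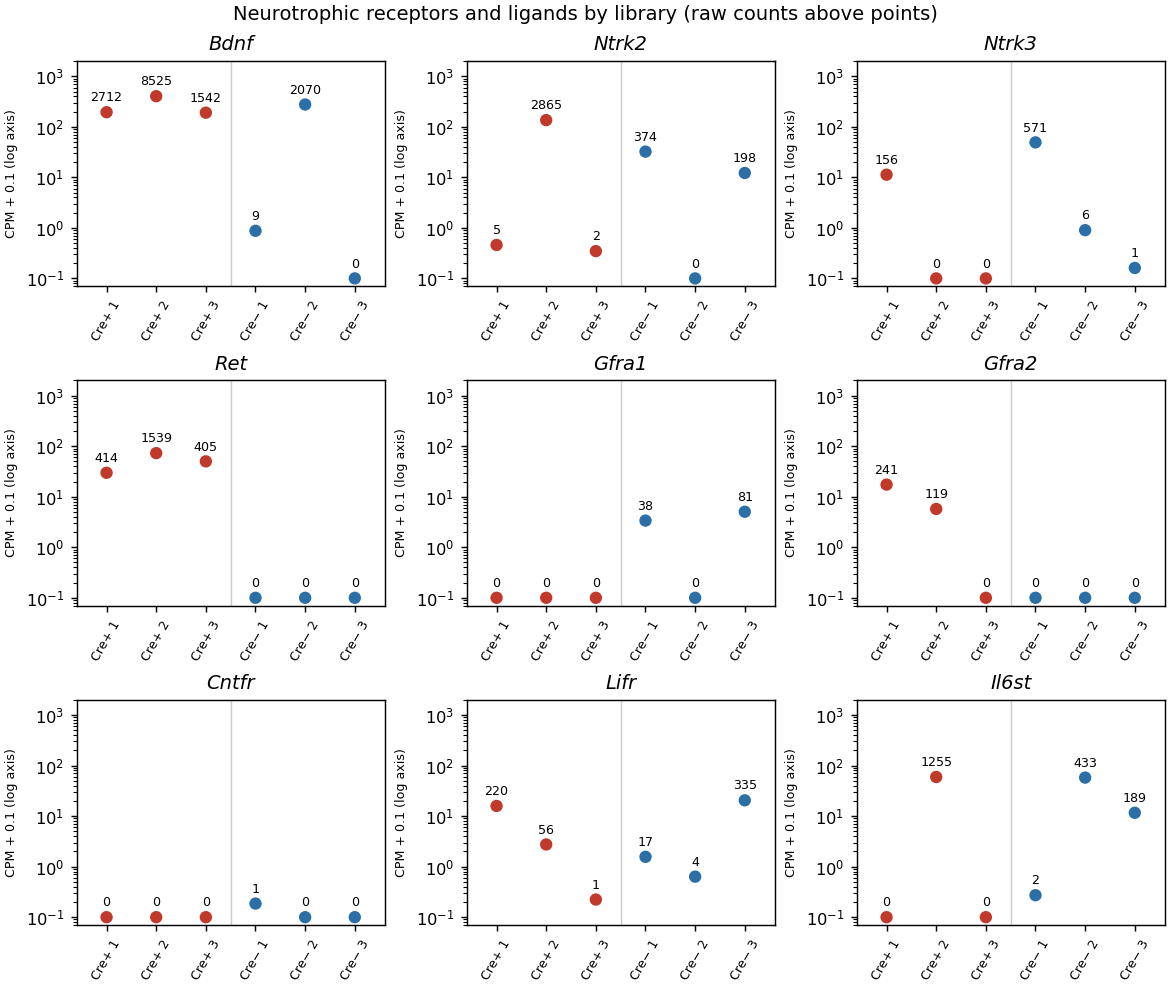
CPM plus 0.1 on a log axis for each of the 9 genes in Cre-positive libraries 1 to 3 (red, left) and Cre-negative libraries 1 to 3 (blue, right), with the raw count printed above each point. Ret has 405 to 1539 counts in the Cre-positive libraries and 0 in each Cre-negative library; the other 8 genes overlap between the groups.

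The comparison of the genotypes called none of these genes. A gene was called at a Benjamini-Hochberg adjusted p under 0.05 in edgeR's quasi-likelihood test, fitted to all 5727 genes that passed its filter on low counts. The share called over all tested genes was 0%, and the smallest adjusted p was 0.681. Of the 9 genes, 6 passed the filter and 0 were called. At an unadjusted p under 0.05, the test gave 1 of the 6, Ret, against 4.91% of all genes tested (4.49% in the higher direction). DESeq2 gave no adjusted p to Bdnf, Ntrk3 and Cntfr, and of the other 6 it called 1 (Ret, higher), against 15% of all genes with an adjusted p, 12.6% higher and 2.39% lower. limma voom called 1 of the 6 (Ret, higher) against 1.54% of genes tested, 1.43% higher and 0.105% lower.

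Bdnf, the ligand, had the highest mean level of the 9 per length of gene, averaged over all libraries. It lies on chromosome 2 of GRCm38 (mm10), 109674700 to 109727007, on the plus strand. It had 2712, 8525 and 1542 counts in Cre-positive libraries 1 to 3, which are 194.6, 403.5 and 190.4 CPM, and 9, 2070 and 0 counts in Cre-negative libraries 1 to 3, which are 0.775, 276.5 and 0 CPM. The Cre-positive libraries were all high, whereas the Cre-negative group was split between library 2 at a similar level and libraries 1 and 3 at or near 0, so the groups overlapped. The 95% exact binomial interval of the CPM was 395 to 412 in Cre-positive library 2 and 265 to 289 in Cre-negative library 2, so the counting error was small beside the spread between libraries.

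The mean level of Bdnf was 262.8 ± 121.9 CPM in the Cre-positive group and 92.4 ± 159.4 CPM in the Cre-negative group (SD, n = 3 each). The fitted log2 fold change, Cre-positive over Cre-negative, was 1.83 and did not pass edgeR's test (adjusted p = 1.00, unadjusted p = 0.474). An exact two-sided permutation test of the CPM gave p = 0.3, where 3 against 3 cannot go below 0.1. Without Cre-negative library 2 the log2 fold change was 9.20, and edgeR's adjusted p was 0.468. Cre-negative library 3, with 0 counts of Bdnf, is also the library with the lowest sum of ganglion cell markers, while Cre-negative library 1, with 9 counts, held 4867.0 CPM of those markers. The deposited counts do not tell sense from antisense reads by any stated setting, and an annotated antisense gene overlaps exons of Bdnf in GENCODE vM21, so its counts are uncertain to that extent.

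Bdnf is transcribed from several alternative start sites into transcripts that share a common coding exon. Its transcription in neurons is known to respond to activity through cAMP response elements. RefSeq lists 7 start windows for the gene, each from 250 bases before a start to 50 bases after it (GRCm38.p6). A pair of these windows is shown because they differ in the motifs they carry and because gene-level counts cannot say which start was used in which library. Capitals mark a match, on either strand, to CAGAC, the SMAD box recognised by the transcription factors of the transforming growth factor beta pathway, or to TGACG, the core shared with the full cAMP response element TGACGTCA, which contains it.
Bdnf chr2:109692186-109692485, plus strand: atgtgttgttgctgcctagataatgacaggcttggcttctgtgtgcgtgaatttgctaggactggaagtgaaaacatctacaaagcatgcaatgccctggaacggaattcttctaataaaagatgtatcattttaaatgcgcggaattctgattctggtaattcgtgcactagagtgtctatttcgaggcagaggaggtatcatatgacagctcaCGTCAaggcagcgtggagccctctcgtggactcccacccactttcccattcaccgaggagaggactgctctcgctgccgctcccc
Bdnf chr2:109722671-109722970, plus strand: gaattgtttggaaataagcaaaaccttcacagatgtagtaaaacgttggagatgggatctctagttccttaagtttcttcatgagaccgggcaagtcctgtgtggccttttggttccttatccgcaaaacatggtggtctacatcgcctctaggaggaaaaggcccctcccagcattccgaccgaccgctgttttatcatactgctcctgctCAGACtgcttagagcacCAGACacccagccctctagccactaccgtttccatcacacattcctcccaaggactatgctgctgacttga

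The first window holds 1 match to the core cAMP response element on the minus strand and no SMAD box, and the second holds 2 SMAD boxes and no cAMP core. Of the 9 genes, 6 had windows in the RefSeq table, 18 windows in all, several of which overlap. A SMAD box was in 9 of these 18 windows, against 49.6% of all 32851 windows of the same length. The cAMP core was in 1 of the 18, against 20.8% of all windows, and the full element in 0 of the 18, against 1.79%. A match is a string of letters and not a bound site.

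The receptors for BDNF and neurotrophin 3 were each high in different libraries from the ligand or in few of its high libraries. Ntrk2, which encodes TrkB (chromosome 13, 58806569 to 59133970), had 5, 2865 and 2 counts in Cre-positive libraries, or 0.359, 135.6 and 0.247 CPM, and 374, 0 and 198 counts in Cre-negative libraries, or 32.2, 0 and 12.1 CPM. Cre-positive library 2 held 83.2% of all Ntrk2 counts, and the remaining Cre-positive libraries lay below Cre-negative libraries 1 and 3. The log2 fold change of 1.52 did not pass (edgeR adjusted p = 1.00), and without Cre-positive library 2 it was -5.52 (adjusted p = 1.00). Ntrk2 produces a full-length kinase and a truncated form that glia also make, and the gene counts do not separate them.

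Ntrk3, which encodes TrkC (chromosome 7, 78175959 to 78738012), had 156, 0 and 0 counts in Cre-positive libraries and 571, 6 and 1 counts in Cre-negative libraries. Library 1 of each genotype was the only library of its group to reach 10 counts, at 11.2 CPM for the Cre-positive and 49.2 CPM for the Cre-negative. The log2 fold change was -2.07 (edgeR adjusted p = 1.00) and was 3.68 without Cre-negative library 1, the library that held 77.8% of the counts. Bdnf was above 190 CPM in 4 libraries, and of these Ntrk2 was detected in Cre-positive library 2 and Ntrk3 in Cre-positive library 1. In Cre-negative library 1 the reverse held: Bdnf had 9 counts where both receptors were detected.

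Among the GDNF family receptors, Ret separated the genotypes. Ret, the signalling kinase (chromosome 6, 118151745 to 118197718, minus strand), had 414, 1539 and 405 counts in Cre-positive libraries 1 to 3 and 0 counts in each Cre-negative library. These are 29.7, 72.8 and 50.01 CPM in the Cre-positive libraries, a mean of 50.9 ± 21.6 CPM (SD, n = 3), with 95% exact binomial intervals of 26.9 to 32.7, 69.3 to 76.6 and 45.3 to 55.1 CPM. In the Cre-negative libraries, a count of 0 allows up to 3 counts, or 0.258, 0.401 and 0.183 CPM, so every Cre-positive library lay well above what depth could hide in a Cre-negative library. These intervals and floors describe counting error alone, because reads counted with no molecular identifier may be copies of a single molecule.

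Taking the floor of 3 counts per library, a mean of 0.281 CPM over the Cre-negative group, Ret was at least 181-fold higher in the Cre-positive group. Its unadjusted p in edgeR was 0.0154 and its adjusted p 0.681, and an exact two-sided permutation test gave p = 0.1, the smallest that 3 against 3 allows. DESeq2 gave an adjusted p of 0.00402 and limma voom 0.0431, and edgeR's adjusted p over its other settings ran up to 1.00. Every Cre-positive library lay above every Cre-negative library for 10.4% of genes tested, and below for 2.3%. The stricter pattern of Ret, at least 10 counts in all Cre-positive libraries and exactly 0 in all Cre-negative libraries, was shared by 122 genes of the table (0.544%), or 2.1% of genes tested, and by mean CPM in the Cre-positive group Ret ranked 74 of the 122. The mirror pattern, at least 10 counts in every Cre-negative library and 0 in every Cre-positive library, occurred for 3 genes (0.0134%). Beside this stand the higher numbers of genes detected in all Cre-positive libraries, and the part of that difference in the counts of Ret was not tested.

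The co-receptors that present ligand to RET were sparse and did not accompany it in every library. Gfra1, the GDNF co-receptor (chromosome 19, 58235604 to 58455909), had 0 counts in each Cre-positive library and 38, 0 and 81 counts in Cre-negative libraries, or 3.27, 0 and 4.95 CPM. Gfra2, the neurturin co-receptor (chromosome 14, 70890120 to 70979838), had 241, 119 and 0 counts in Cre-positive libraries, or 17.3, 5.63 and 0 CPM, and 0 counts in each Cre-negative library. The co-receptors were thus found in different libraries, with Gfra1 in 2 Cre-negative and Gfra2 in 2 Cre-positive libraries, and each shared counts of 0 with the opposite group.

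With the same floor of 3 counts per library, the mean of Gfra1 was at least 11.3-fold lower and that of Gfra2 at least 27.2-fold higher in the Cre-positive group. Each mean rests on 2 libraries. Gfra1 was at 2.74 ± 2.52 CPM in the Cre-negative group and Gfra2 at 7.64 ± 8.82 CPM in the Cre-positive group (SD, n = 3 each). The groups overlapped for both genes, and an exact two-sided permutation test of the CPM gave p = 0.4 for each. Neither passed edgeR's filter on low counts, so neither was tested in the main comparison. With no filter, edgeR's adjusted p was 0.525 for each of them, and DESeq2 gave adjusted p values of 0.0993 for Gfra1 and 0.0612 for Gfra2. In Cre-positive library 3, Ret had 405 counts where both co-receptors had 0, and in Cre-negative libraries 1 and 3, Gfra1 had 38 and 81 counts where Ret had 0. An antisense gene overlaps exons of Gfra1 in GENCODE vM21. Cre-negative library 3, with the highest Gfra1 count, is the library with the high endothelial sum. Cre-positive library 3, with the next highest endothelial sum at 945.8 CPM, had 0 counts of Gfra1. The sum was 673.4 CPM in Cre-negative library 1, the other library with Gfra1 counts.

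Of the receptors for ciliary neurotrophic factor and leukaemia inhibitory factor, the binding subunit was not detected. Cntfr (chromosome 4, 41657498 to 41697089) had 0 counts in each Cre-positive library and 1, 0 and 0 counts in Cre-negative libraries. At these depths, 0 counts allow up to 0.142 to 0.370 CPM in the Cre-positive libraries. It did not pass the filter on low counts. With no filter edgeR's adjusted p was 0.525, and DESeq2 gave it no adjusted p.

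Il6st, which encodes the shared signalling chain gp130 (chromosome 13, 112464070 to 112510086), had 0, 1255 and 0 counts in Cre-positive libraries and 2, 433 and 189 counts in Cre-negative libraries. The high libraries were Cre-positive 2 at 59.4 CPM and Cre-negative 2 at 57.8 CPM, with Cre-negative 3 at 11.5 CPM, and the groups overlapped. The mean was 19.8 ± 34.3 CPM in the Cre-positive group and 23.2 ± 30.5 CPM in the Cre-negative group (SD, n = 3 each). The log2 fold change was 0.02 (edgeR adjusted p = 1.00), and it was -10.78 without Cre-positive library 2.

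Lifr, the partner chain of gp130 (chromosome 15, 7090614 to 7197489), had 220, 56 and 1 counts in Cre-positive libraries and 17, 4 and 335 counts in Cre-negative libraries. It was the only 1 of the 9 with counts in all 6 libraries, although at most 20.5 CPM. Cre-negative library 3, with the highest Lifr count, also held the highest endothelial marker sum. Cre-positive library 3, with the next highest sum at 945.8 CPM, had 1 count of Lifr. Cre-positive library 1, with a sum of 569.8 CPM, had 220 counts. The log2 fold change, near 0 with all libraries (edgeR adjusted p = 1.00), was 2.72 without Cre-negative library 3. Lifr and Il6st were detected together in Cre-positive library 2 and in Cre-negative library 3.

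Levels were compared between genes as FPKM, which divides by gene length. Averaged over all 6 libraries, the order from high to low was Bdnf at 26.5, Il6st at 3.76, Ret at 3.46, Gfra2 at 1.10, Ntrk2 at 1.02, Lifr at 0.636, Ntrk3 at 0.426, Gfra1 at 0.253 and Cntfr at 0.00316 FPKM. In the Cre-positive group the mean was 39.1 ± 18.1 FPKM for Bdnf and 6.93 ± 2.94 FPKM for Ret, and the 3 libraries of Bdnf, from 28.4 to 60.1 FPKM, lay above the 3 of Ret, from 4.05 to 9.92 FPKM. Over all 6 libraries, each gene in the order, Bdnf included, had libraries that overlapped those of the next. Bdnf was at 0.115 and 0 FPKM in Cre-negative libraries 1 and 3, while Il6st reached 10.4 FPKM in Cre-positive library 2. These positions are therefore not separated beyond the spread between libraries. The order differed between the groups: Ret followed Bdnf in the Cre-positive group, above Il6st at 3.46 ± 5.997 FPKM, and had 0 counts in the Cre-negative group, where Il6st was at 4.05 ± 5.34 FPKM (SD, n = 3 each). It also rests on the gene lengths. The authors' FPKM imply 5719 bases for Il6st, where the annotated exons in GENCODE vM21 cover 11099 bases. With exon lengths, an alternative chosen after seeing the data, Ret ranked 2 and Il6st 3 of 9 over all libraries. Length changed the place of Ntrk2, which ranked 2 of 9 by CPM and 5 of 9 by FPKM, since the authors' table implies a length of 29517 bases for it.

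**Figure D3:**
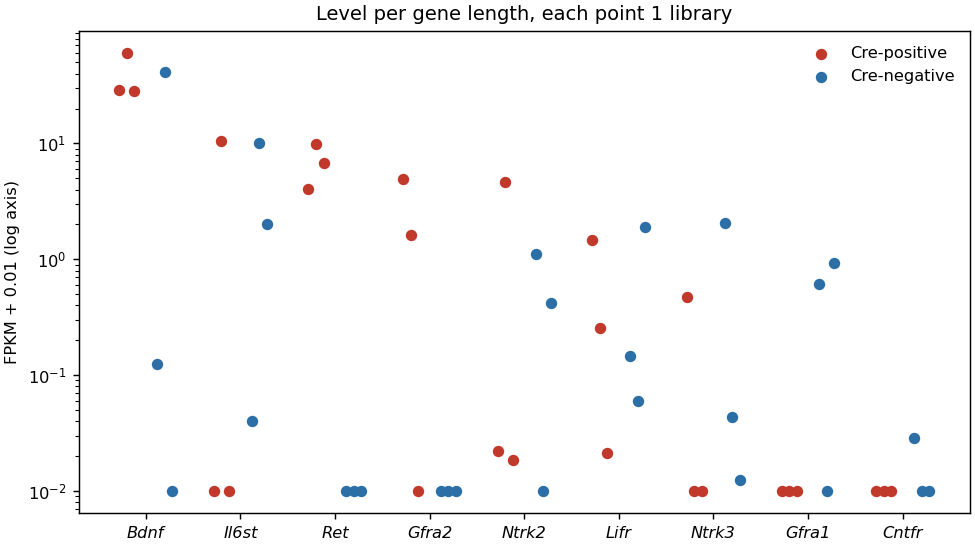
FPKM plus 0.01 on a log axis for the 9 genes, ordered by mean FPKM over 6 libraries, with Cre-positive libraries in red to the left and Cre-negative libraries in blue to the right of each position, 1 point per library. Bdnf reaches 60.1 FPKM, and points at 0.01 are libraries with 0 counts.

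The genes most like each of these across the libraries were found by Pearson correlation of log2(CPM + 1) over the 6 libraries, among the genes tested. For Ret these were Ppa1, a pyrophosphatase (r = 0.9987), Dynlt1a of the dynein complex (r = 0.9987) and Rps19bp1 (r = 0.9985). Ppa1 had 996, 4471 and 1606 counts in Cre-positive libraries and 0 in each Cre-negative library. For Bdnf they were Mob4 (r = 0.9978), the deubiquitinase Usp5 (r = 0.9967) and Cystm1 (r = 0.9941), each with at most 8 counts in Cre-negative library 1 and 0 in library 3. For Il6st the closest was Kbtbd3 (r = 0.9996), for Ntrk2 catalase, Cat (r = 0.9942), for Ntrk3 the mitochondrial gene ND5 (r = 0.9858) and for Lifr Skap2 (r = 0.9773). Correlations above 0.95 were common, with 145 genes for Ret and 97 for Bdnf.

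Of the other ligands of the neurotrophin family, Ntf3 for neurotrophin 3 and Ntf5 for neurotrophin 4 each reached 10 counts in 1 library. Ntf3 had 0, 1 and 0 counts in Cre-positive libraries and 0, 1878 and 0 counts in Cre-negative libraries. Ntf5 had 0 counts in each Cre-positive library and 0, 57 and 0 counts in Cre-negative libraries. Cre-negative library 2, which held Ntf3 and Ntf5, was also where Bdnf was high in its group.

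Sorting receptors and the processing enzyme of the neurotrophins were as uneven. Sort1, which encodes sortilin, a receptor for the precursor forms of neurotrophins, had 1, 534 and 439 counts in Cre-positive libraries and 0 in each Cre-negative library, and DESeq2 called it (adjusted p = 0.0130). Its relative Sorcs1 had 5, 0 and 27 counts in Cre-positive libraries and 0, 3875 and 0 in Cre-negative libraries. Sorcs3, of the same family, had 0 counts in each Cre-positive library and 1, 330 and 0 in Cre-negative libraries, so both reached their highest count in Cre-negative library 2. Sorl1 had 2, 0 and 270 counts in Cre-positive libraries and 0, 0 and 2 in Cre-negative libraries. Furin, a protease that cleaves precursor neurotrophins, had 15, 481 and 0 counts in Cre-positive libraries and 3, 0 and 0 in Cre-negative libraries. Of the 10 further genes of the neurotrophin family in the table, these ligands included, 0 passed edgeR's filter.

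Among relatives of the GDNF system, Ncam1, an adhesion molecule that can also serve as a GDNF receptor, was measured in every library. It had 4624, 4461 and 2775 counts in Cre-positive libraries and 1463, 4961 and 930 counts in Cre-negative libraries, 295.2 ± 73.0 CPM against 281.8 ± 331.6 CPM (SD, n = 3 each), a log2 fold change of 0.32 ± 1.39 (SE; edgeR adjusted p = 1.00). The secreted growth factors Ptn (pleiotrophin) and Mdk (midkine) were concentrated in Cre-negative library 2. Ptn had 0, 736 and 4 counts in Cre-positive libraries and 648, 10134 and 0 in Cre-negative libraries, and Mdk had 0, 0 and 65 in Cre-positive libraries and 0, 1091 and 0 in Cre-negative libraries. Sdc3, a proteoglycan co-receptor, had 3, 694 and 4 counts in Cre-positive libraries and 0, 0 and 510 in Cre-negative libraries. Gdf15, a stress-induced ligand, had 67, 403 and 0 counts in Cre-positive libraries and 536, 0 and 443 in Cre-negative libraries, while its receptor gene Gfral had 4, 142 and 0 counts in Cre-positive libraries and 0 in each Cre-negative library.

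Of the gp130 cytokines and receptors, Il11 and Lif were found mainly in Cre-positive library 3. Il11, interleukin 11, had 847, 0 and 3514 counts in Cre-positive libraries and 1, 0 and 0 in Cre-negative libraries, and DESeq2 called it (adjusted p = 0.00742). Lif, leukaemia inhibitory factor, had 6, 0 and 542 counts in Cre-positive libraries and 4, 0 and 0 in Cre-negative libraries. The further receptor genes of the family, Il6ra, Il11ra1 and Osmr, were each concentrated in 1 or 2 libraries. Il6ra had 317, 0 and 1 counts in Cre-positive libraries and 0 in each Cre-negative library. Il11ra1 had 0, 32 and 0 counts in Cre-positive libraries and 0 in each Cre-negative library. Osmr, the oncostatin M receptor, had 4, 0 and 939 counts in Cre-positive libraries and 0, 0 and 2314 in Cre-negative libraries. Il6st was at 0 counts in Cre-positive library 3, the library with the highest counts of Il11 and Lif.

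Downstream of the receptors, 0 of the genes tested were called. Over 7 lists of 124 measured genes that cover the ligand families, adaptors, the MAP kinase, AKT and CREB branches, JAK-STAT signalling and feedback targets, 55 passed the filter. Of these, 29 had a positive and 26 a negative log2 fold change, with a median of 0.08, against 54.2% positive and a median of 0.14 over all genes tested; the medians were the same with genes at 0 in a whole group set to their bounds. At an unadjusted p under 0.05, 4 were higher and 0 lower, which may be set beside the 4.49% and 0.419% of all genes. DESeq2, run without that filter on the 124 measured genes, called 9, and limma voom called 1 of 55, all higher in the Cre-positive group. Over all genes, DESeq2 called 12.6% of those with an adjusted p higher, and limma voom 1.43% of those tested. How many of the 124 had a DESeq2 adjusted p was not counted, so the 9 cannot be set against the 12.6%.

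Sos2, Pdpk1 and Dusp4 were 3 of these 4 genes. Sos2, an exchange factor that activates RAS, had 115, 2231 and 1710 counts in Cre-positive libraries and 0, 0 and 1 in Cre-negative libraries (edgeR adjusted p = 0.730). Pdpk1, the kinase that activates AKT, had 507, 722 and 1262 counts in Cre-positive libraries and 2, 0 and 1 in Cre-negative libraries (edgeR adjusted p = 0.849). Dusp4, a phosphatase that switches off MAP kinases, had 161, 98 and 111 counts in Cre-positive libraries and 0 in each Cre-negative library, at least 35.5-fold higher over the floor of 3 counts per library (edgeR adjusted p = 0.681).

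The remaining genes with the smallest p in their lists did not reach an unadjusted p under 0.05. Akt2 had 290, 562 and 369 counts in Cre-positive libraries and 5, 0 and 0 in Cre-negative libraries. The adaptor Crk was at 23.8 ± 15.3 CPM in the Cre-positive group and 291.3 ± 120.2 CPM in the Cre-negative group (SD, n = 3 each). Every Cre-positive library lay below every Cre-negative library, as for 2.3% of all genes tested. The reverse, every Cre-positive library above, held for 9 of the 55 pathway genes and 10.4% of all genes tested. The log2 fold change of Crk was -3.39 ± 2.51 (SE, edgeR adjusted p = 1.00). Ndfip1, which recruits ubiquitin ligases, was at 884.4 ± 239.2 CPM in the Cre-positive group and 1457.0 ± 784.2 CPM in the Cre-negative group. Stat3, the transcription factor below gp130, had 5, 3190 and 2476 counts in Cre-positive libraries and 13, 0 and 293 in Cre-negative libraries, and its feedback inhibitor Socs3 had 74, 231 and 0 counts in Cre-positive libraries and 0, 0 and 58 in Cre-negative libraries. Pias1, an inhibitor of STAT proteins, had 5102, 315 and 0 counts in Cre-positive libraries and 1324, 0 and 441 in Cre-negative libraries. Spry2, a feedback inhibitor of receptor tyrosine kinases, was at 204.2 ± 241.7 CPM in the Cre-positive group and 494.8 ± 67.5 CPM in the Cre-negative group, and its relative Spred1 was at 88.6 ± 37.0 CPM against 15.7 ± 27.1 CPM.

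Across the settings tried, the sign of the fitted change held for Bdnf and turned for Ntrk2, Ntrk3, Lifr and Il6st. The sign could not turn for Ret, which had 0 counts in every Cre-negative library. Bdnf lay between 1.25 and 9.20 on the log2 scale in 15 alternatives, with edgeR, DESeq2 and limma adjusted p values no lower than 0.343 where one was given. Ret was positive in the same 15 alternatives and was called in 2 of them.

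**Figure D4:**
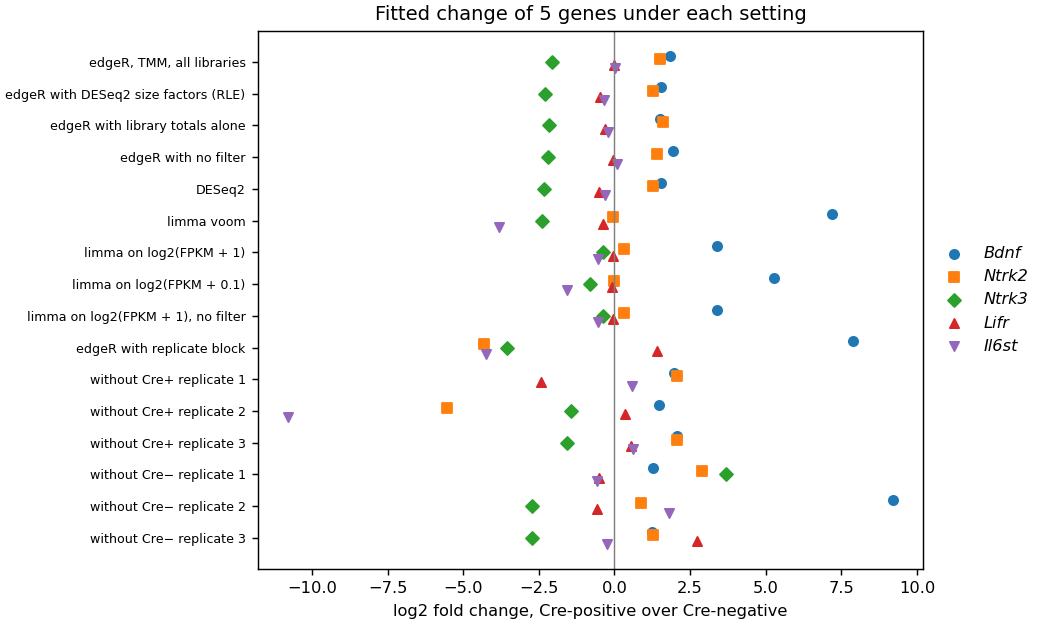
Fitted log2 fold change, Cre-positive over Cre-negative (horizontal axis), of Bdnf, Ntrk2, Ntrk3, Lifr and Il6st under each setting (rows; the top row is edgeR with TMM scaling on all libraries). Bdnf stays right of 0 in every row, from 1.25 to 9.20, and Il6st crosses 0, reaching -10.78 without Cre-positive library 2; Ret is left out because its fitted value rests on a group of 0 counts.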

How the data were processed

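The tables deposited by the authors hold whole-number counts and FPKM of 22413 genes in 6 libraries, with 0 columns of other samples. The VAHTS Universal V6 kit and 1 ng of RNA were used per library, per the labels' protocols. The submitters' processing notes name mm10, HTSeq, HISAT2, fastp, DESeq2 and R 3.2.0 with no role; the sources used here give no cell isolation, strand setting or annotation. The FPKM deposited by the authors equal counts over a fixed gene length and the library total.

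CPM, the counts over the column total, were computed here. Genotypes were compared with edgeR 4.0.16 (quasi-likelihood test with robust fitting, TMM scaling, filterByExpr, genotype as the only term, Benjamini-Hochberg adjusted p under 0.05) in R 4.3.3, on all 5727 genes that passed; SE is the log2 fold change over the square root of F. Single values were compared with exact permutation tests (SciPy 1.17.1). DESeq2 1.42.0, which left the adjusted p of 16513 genes missing, and limma 3.58.1 were alternatives, beside other scalings, filters, pseudocounts, a replicate block and each library left out. The fits were also run on simulated counts, with outcomes that are not given here. In the main fit, edgeR's biological coefficient of variation, the spread between libraries relative to the mean, was 2.04. Pathway genes named were every ligand or receptor with 10 counts in any library and the 3 smallest p of each other list, except some that are not reported here; members and lists were chosen with earlier results of these data known. Coordinates are from GENCODE vM21 (GRCm38), sequences from RefSeq (GRCm38.p6).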

Additional observations from a re-analysis of the deposited data

How the results depend on the processing

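The count of genes called, 0 of 5727 with edgeR (281 at an unadjusted p under 0.05), was 885 with DESeq2 and 88 with limma voom, and 0 to 7 with 1 library left out (7, 3 and 4 without Cre-negative libraries 1, 2 and 3, and 2, 0 and 0 without Cre-positive libraries 1, 2 and 3). Of the 9 receptors and ligands, DESeq2 and limma voom each called 1, Ret, against 0 with edgeR, and no fit without a library called any. Pathway genes called were 9 with DESeq2 and 1 with limma voom against 0. The difference in detected genes among the 9, 1.00 at 10 counts, was 0 at 1 count, 1.67 at 50 counts, 1.00 in thinned libraries and 0.167 to 2.17 with 1 library left out (lowest without Cre-positive library 2, highest without Cre-positive library 3); the SD between libraries was 2.08 in the Cre-positive and 1.15 in the Cre-negative group. The cause of these moves was not tested.

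Signs turned for 4 genes. Ntrk2 (1.52) was -0.033 with limma voom, -0.03 on log2(FPKM + 0.1), -4.32 with the replicate block and -5.52 without Cre-positive library 2, in a range of -5.52 to 2.88 with 1 library left out. Ntrk3 (-2.07) was 3.68 without Cre-negative library 1 (range -2.72 to 3.68). Lifr (-0.00074) was 1.40 with the block, and 0.36, 0.55 and 2.72 without Cre-positive libraries 2 and 3 and Cre-negative library 3 (range -2.44 to 2.72). Il6st (0.02) was -0.33 with DESeq2's size factors in edgeR, -0.23 with library totals, -0.32 with DESeq2, -3.82 with limma voom, -0.53 on log2(FPKM + 1) with and without a filter, -1.58 on log2(FPKM + 0.1), -4.25 with the block, and -10.78, -0.58 and -0.26 without Cre-positive library 2 and Cre-negative libraries 1 and 3 (range -10.78 to 1.82). The median of all tested genes was 0.14 with TMM, -0.13 with DESeq2's size factors, 0.03 with library totals and 1.58 with limma voom.

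Same-numbered libraries did not deviate together (r = -0.02, 0.03 and -0.01 across genes for numbers 1, 2 and 3), and the numbers were not taken as pairs. Differently numbered libraries gave r from -0.05 to 0.05. With so large a spread between libraries, these values cannot exclude that same-numbered libraries were prepared as pairs. With the replicate block, 0 genes, 0 of the 9 and 0 pathway genes were called. On genes with at least 10 counts in all 6 libraries none of the 9 remained, so that setting gave no value for them. Cntfr, with 1 count in all, gives no level at these depths.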
